A study of Mus musculus with 18 samples.

Results

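Blood group antigens are proteins and sugars at the surface of the red cell whose inherited differences define the human blood group systems. The proteins do varied work: some carry water, urea or gases, some cut peptides or bind other cells, and some tie the membrane to the spectrin skeleton beneath it. They appear on the cell at different points as erythroid progenitors mature, some of them well before haemoglobin. Described here are the mouse genes Rhag, Rhd, Icam4, Kel, Ermap, Gypc, Aqp1, Slc14a1 and Cd44, which carry the counterparts of the human RHAG, Rh, Landsteiner-Wiener, Kell, Scianna, Gerbich, Colton, Kidd and Indian antigens. They were found by gene symbol: all 9 are among the 24072 genes of the spleen count table, 7 are among the 10702 genes of the table of both burst-forming populations, and 44 of 61661 and 29 of 35142 open chromatin peaks are assigned to them.

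The mice had the strain background B6SJL. Multipotent progenitors (MPP), burst-forming units (BFU-E) and the more mature colony-forming units (CFU-E) of the stress response came from spleens on day 8 after mice were lethally irradiated and given whole, unsorted marrow. The BFU-E they are set against came from the marrow of untreated, steady-state mice (BM). RNA was sequenced from 3 libraries of each of the 4 populations, and accessible chromatin was profiled by ATAC-seq, which cuts open DNA with a transposase, from 3 libraries of each BFU-E population. All cells were depleted of lineage-positive cells, including those with the erythroid antigen Ter-119, before sorting by surface antigens. Tissue, irradiation with transplantation and the fluorophore of the sort changed together between the BFU-E populations, so their parts cannot be told apart, and nothing in the labels says whether the libraries of a population came from separate mice.

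The spleen libraries held 5937778 to 13197159 counts, and those of the BFU-E table held 10555143 to 12926718 counts in stress BFU-E and 6758871 to 9463498 counts in BM BFU-E. The BM libraries stood apart from each other: 1.53% to 15.3% of the genes of that table had a count of 0 in them, against 0.42% to 0.738% in the stress BFU-E libraries. Among 6 genes of antigens used in the sort, 1 was higher and 3 were lower in BFU-E than in MPP, and 4 were higher and 2 were lower in CFU-E than in BFU-E. Of all tested genes, 2.03% were higher and 2.11% lower in BFU-E than in MPP. In CFU-E against BFU-E, 9.17% were higher and 11.9% lower. Ly6a, the gene of the Sca1 antigen, averaged 19.8 ± 1.28 CPM (counts scaled to library size with TMM factors) in MPP, 0.286 ± 0.373 CPM in BFU-E and 1.94 ± 1.82 CPM in CFU-E (SD, n = 3 each). Cd9 averaged 79.8 ± 4.81 CPM in MPP, 149 ± 14.0 CPM in BFU-E and 18.7 ± 7.34 CPM in CFU-E. The summed level of 10 erythroid marker genes was 634 to 701 CPM in MPP, 643 to 701 CPM in BFU-E and 1980 to 2050 CPM in CFU-E. Of the 7 tested, 4 were higher and 1 was lower in BFU-E than in MPP, with a median log2 fold change of 0.67. All 7 were higher in CFU-E than in BFU-E. The part of these markers in the levels below was not tested. These are bulk samples, in which fewer cells of a type and less RNA per cell cannot be told apart.

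The first question is how the level of each gene changes along the spleen series. Between BFU-E and MPP, 3 of the 8 genes tested were higher in BFU-E and none was lower, where 4.13% of all 10166 genes were called, 2.03% higher and 2.11% lower (edgeR quasi-likelihood test, adjusted p under 0.05). Between CFU-E and BFU-E, 5 of 8 were higher in CFU-E and 1 was lower, where 21.1% of all genes were called, 9.17% higher and 11.9% lower. Between CFU-E and MPP, 6 of 8 were higher in CFU-E and 1 was lower, where 28.8% of all genes were called, 12.7% higher and 16% lower. The median log2 fold change of the 8 genes was 0.81, 0.95 and 1.79 in these comparisons in that order, and the median of all tested genes was 0.00 in each. Rhd had too few counts to be tested. Rhag, Kel and Ermap reached the mean of 50 counts that the test asked for only through their level in CFU-E, so a difference between CFU-E and the other populations was built into their entry.

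**Figure D1:**
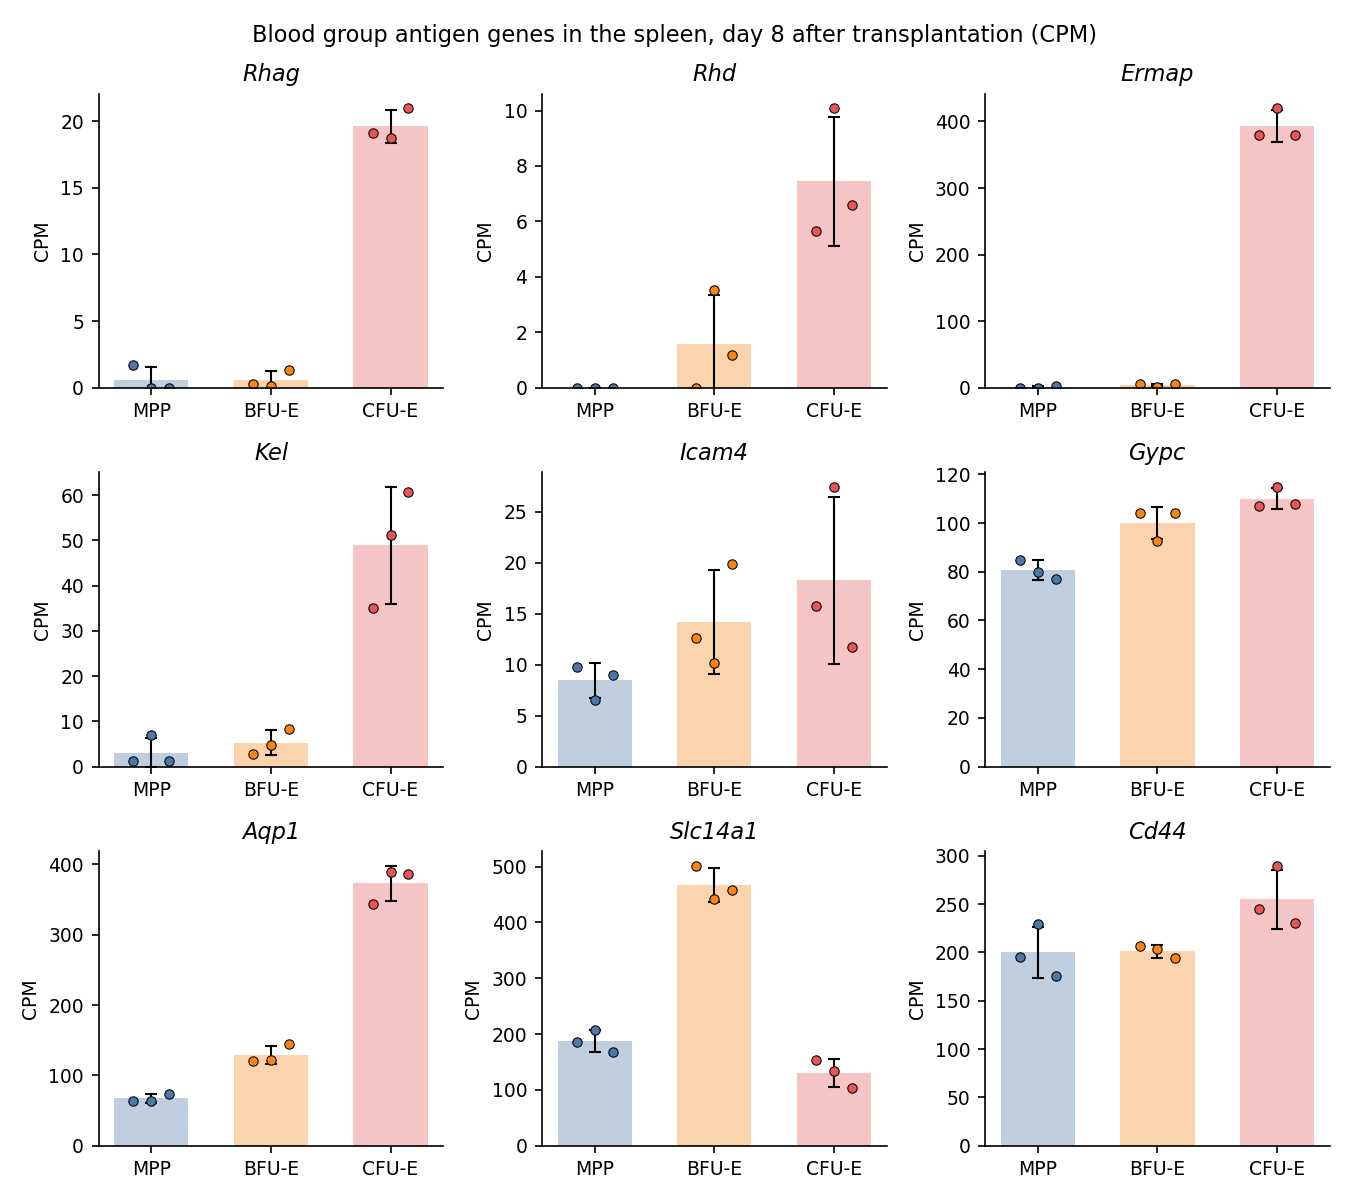
Level in CPM of the 9 genes in the spleen populations of the stress response, with 3 libraries each of MPP, BFU-E and CFU-E: points are libraries, bars are means and error bars are SD, and each panel has its own linear axis from 0. Rhag, Ermap and Kel stand high in CFU-E alone, Rhd is highest there with some counts in BFU-E, Aqp1 climbs over both steps, and Slc14a1 is highest in BFU-E, at 442 to 502 CPM.

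Rhag (chr17:40811149-40840754, plus strand, in mm10) encodes the Rh-associated glycoprotein, a channel of the ammonium transporter family around which the Rh complex is built. It had 1.71, 0.00 and 0.00 CPM in the MPP libraries, 0.299, 0.0923 and 1.34 CPM in the BFU-E libraries, and 19.1, 18.7 and 21.0 CPM in the CFU-E libraries. The 3 CFU-E libraries lay close together and far above all others, and MPP and BFU-E overlapped. The level in CFU-E was 5.04 higher than in BFU-E on the log2 scale (SE 0.97, edgeR adjusted p = 0.00061) and 4.83 higher than in MPP (SE 0.97, edgeR adjusted p = 0.00068). Against MPP, the BFU-E value was −0.21 (SE 0.97, edgeR adjusted p = 0.96), and it turned on 1 library: without MPP library 1, which held all 22 MPP counts, it was 5.66 (SE 2.04, edgeR adjusted p = 0.16).

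Rhd (chr4:134864536-134896172, plus strand), the single mouse gene for the Rh protein that joins Rhag in this complex, was the lowest of the genes in MPP and in CFU-E. Its counts were 0, 0 and 0 in MPP, 0, 38 and 15 in BFU-E, and 73, 119 and 65 in CFU-E. All 3 CFU-E libraries exceeded all BFU-E libraries, and 1 BFU-E library had no count at all. Against a floor of 3 counts over the MPP libraries, the pooled level was at least 12.7-fold higher in BFU-E and at least 65.5-fold higher in CFU-E. In a fit without a filter on low counts, the CFU-E level was 2.26 above BFU-E on the log2 scale (SE 1.10, edgeR adjusted p = 0.18), which did not pass the test, while both differences from MPP did (edgeR adjusted p = 0.0044 for BFU-E and 4.2e-06 for CFU-E).

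Icam4 (chr9:21029373-21030531, plus strand), an adhesion molecule of the immunoglobulin family that associates with the Rh complex and binds integrins, was already present in MPP. It had 9.78, 6.57 and 9.03 CPM in MPP, 12.6, 10.2 and 19.9 CPM in BFU-E, and 15.8, 27.5 and 11.7 CPM in CFU-E. The CFU-E libraries spread widely and overlapped those of BFU-E. Neither step passed the test, with log2 fold changes of 0.74 for BFU-E over MPP (SE 0.42, edgeR adjusted p = 0.43) and 0.37 for CFU-E over BFU-E (SE 0.41, edgeR adjusted p = 0.60). Over both steps the value was 1.11 (SE 0.42, edgeR adjusted p = 0.054), just short of the threshold. It passed with DESeq2 (adjusted p = 0.030).

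Kel (chr6:41686330-41704325, minus strand) encodes the Kell glycoprotein, a zinc endopeptidase that processes endothelins. It had 1.16, 6.91 and 1.29 CPM in MPP, 2.77, 4.89 and 8.26 CPM in BFU-E, and 35.0, 51.1 and 60.6 CPM in CFU-E. All CFU-E libraries exceeded all others, while BFU-E and MPP overlapped because of MPP library 2. The level in CFU-E was 3.20 above BFU-E (log2; SE 0.52, edgeR adjusted p = 0.00011), and BFU-E was 0.87 above MPP (SE 0.54, edgeR adjusted p = 0.49). Without MPP library 2 the BFU-E value became 2.11 (SE 0.49, edgeR adjusted p = 0.015).

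Ermap (chr4:119175457-119190011, minus strand), the erythroid membrane-associated protein of the butyrophilin-like family that carries the Scianna antigens, had the largest difference between CFU-E and BFU-E of the 8 genes tested. It had 0.233, 0.173 and 2.84 CPM in MPP, 5.46, 1.75 and 4.96 CPM in BFU-E, and 379, 421 and 380 CPM in CFU-E. The CFU-E libraries lay in a narrow band, whereas the lowest BFU-E library lay below the highest MPP library. The level in CFU-E was 94.8 times that in BFU-E, or 6.57 on the log2 scale (SE 0.35, edgeR adjusted p = 9.7e-12), and 387 times that in MPP (8.60, SE 0.42, edgeR adjusted p = 2.7e-12). BFU-E was 2.03 above MPP (SE 0.52, edgeR adjusted p = 0.029). That earlier, smaller difference lost its call with DESeq2 (adjusted p = 0.28), with limma on log2(RPKM + 0.1) (1.53, adjusted p = 0.26) and log2(RPKM + 1) (0.40, adjusted p = 0.45), and without BFU-E library 1 (0.15) or 3 (0.12) or MPP library 1 (0.19) or 2 (0.075), and without MPP library 3 it was 4.21.

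Gypc (chr18:32528320-32560034, minus strand) encodes glycophorin C, which ties the membrane to the skeleton through protein 4.1, and its level was close in all 3 populations. It had 85.0, 80.0 and 76.9 CPM in MPP, 104, 92.6 and 104 CPM in BFU-E, and 107, 115 and 108 CPM in CFU-E. The groups did not overlap, yet they lay close: the log2 fold change was 0.31 for BFU-E over MPP (SE 0.14, edgeR adjusted p = 0.25), 0.13 for CFU-E over BFU-E (SE 0.13, edgeR adjusted p = 0.56) and 0.44 for CFU-E over MPP (SE 0.14, edgeR adjusted p = 0.018). The last call was lost without CFU-E library 2 (edgeR adjusted p = 0.062) or MPP library 3 (0.051), and with limma at either pseudocount (adjusted p = 0.056).

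Aqp1 (chr6:55336299-55348555, plus strand), the water channel of red cells, climbed at both steps. It had 64.2, 63.4 and 74.0 CPM in MPP, 121, 122 and 144 CPM in BFU-E, and 343, 389 and 386 CPM in CFU-E. No library of one population reached the range of another. BFU-E was 0.94 above MPP (log2; SE 0.12, edgeR adjusted p = 3.5e-05) and CFU-E was 1.53 above BFU-E (SE 0.12, edgeR adjusted p = 3.7e-09). The second step was larger than the first by 0.59 (SE 0.20), which did not pass the test of the difference in edgeR (adjusted p = 0.089) and passed in DESeq2 (adjusted p = 0.045).

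Slc14a1 (chr18:78100091-78123426, minus strand), the urea transporter UT-B, was the gene that peaked in BFU-E. It had 185, 208 and 168 CPM in MPP, 502, 442 and 458 CPM in BFU-E, and 154, 133 and 104 CPM in CFU-E. The 3 populations did not overlap, and the CFU-E libraries lay lowest. BFU-E was 1.32 above MPP (log2; SE 0.13, edgeR adjusted p = 1.4e-06). CFU-E fell by 1.84 on the log2 scale relative to BFU-E (SE 0.13, edgeR adjusted p = 1.1e-09) and by 0.52 relative to MPP (SE 0.13, edgeR adjusted p = 0.0042). Summed, 8 megakaryocyte markers had 1020 to 1190 CPM in MPP, 1780 to 2050 CPM in BFU-E and 78.3 to 90.2 CPM in CFU-E. Of these, 3 were higher in BFU-E than in MPP, where 2.03% of all tested genes were higher. All 8 were lower in CFU-E than in BFU-E. Their median log2 fold change in CFU-E against MPP was −6.06, beside −0.52 for Slc14a1. A list of 10 myeloid markers also summed highest in BFU-E, at 135 to 490 CPM in MPP, 673 to 817 CPM in BFU-E and 37.9 to 82.8 CPM in CFU-E, and 5 of the 8 tested were lower in CFU-E than in BFU-E. Of all tested genes, 11.9% were lower in that comparison. Markers of endothelium, where UT-B is also made, summed to 252 to 335 CPM in MPP, 228 to 281 CPM in BFU-E and 56.0 to 73.8 CPM in CFU-E, where the defining markers Cdh5 and Emcn were at 0. The part of these cell types in the Slc14a1 result was not tested.

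Cd44 (chr2:102811142-102901665, minus strand), the hyaluronan receptor that carries the Indian antigens and is found on most blood cells, had 195, 229 and 176 CPM in MPP, 207, 204 and 194 CPM in BFU-E, and 245, 290 and 231 CPM in CFU-E. BFU-E lay inside the range of MPP, at a difference of 0.01 on the log2 scale (SE 0.12, edgeR adjusted p = 0.98). CFU-E lay above both by about the same amount, 0.34 over BFU-E (SE 0.12, edgeR adjusted p = 0.044) and 0.35 over MPP (SE 0.12, edgeR adjusted p = 0.031). The first of these calls was lost without BFU-E library 1 (edgeR adjusted p = 0.088), 2 (0.099) or 3 (0.14) and without CFU-E library 1 (0.067) or 2 (0.23). The second was lost without CFU-E library 2 (0.18) or MPP library 1 (0.077) or 3 (0.13). With limma, at either pseudocount, both were lost (adjusted p = 0.16 over BFU-E and 0.14 over MPP).

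**Figure D2:**
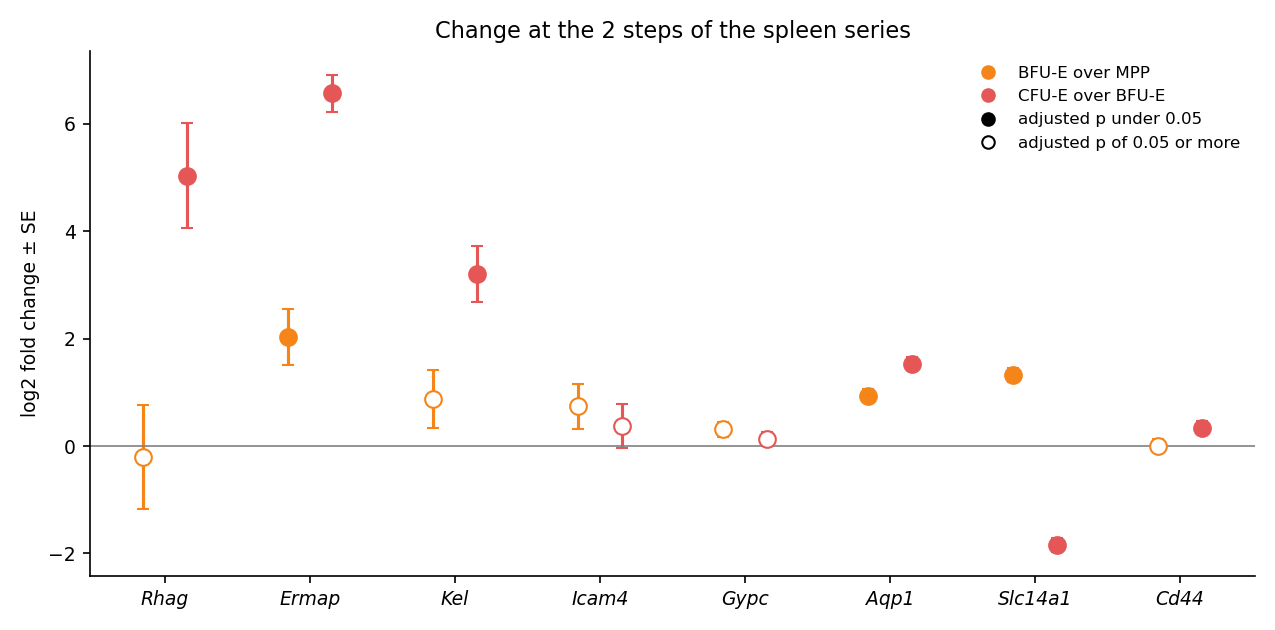
Log2 fold change with its standard error for BFU-E over MPP and for CFU-E over BFU-E in the 8 genes tested, from the edgeR fit of the spleen libraries; filled points have an adjusted p under 0.05. Ermap, Rhag and Kel have filled points well above 0 for CFU-E over BFU-E, and Slc14a1 is the gene with a fall that passed the test, of 1.84.

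Whether the steps differ was tested directly, as the change from BFU-E to CFU-E minus the change from MPP to BFU-E. This signed difference was above 0 for 1 of the 8 genes and below 0 for 1, where 7.77% of all genes were called, 2.78% higher and 4.99% lower. These were Ermap, above 0 (difference 4.54 on the log2 scale, SE 0.85, edgeR adjusted p = 0.0012) and Slc14a1, which rose at the first step and fell at the second (−3.16, SE 0.21, edgeR adjusted p = 9.9e-10). The Ermap difference was 2.36 without MPP library 3 (edgeR adjusted p = 0.3). Ermap, Rhag and Kel passed the filter on mean counts only through their level in CFU-E. A difference above 0 was therefore favoured by their entry, and the Ermap call has to be read with that limit. Rhag had the largest difference, 5.25, with the largest error (SE 1.74, edgeR adjusted p = 0.074), and without MPP library 1 its sign turned, to −0.62 (edgeR adjusted p = 0.81). Kel had 2.33 (SE 0.92, edgeR adjusted p = 0.15), and the absolute differences of Gypc, Icam4 and Cd44 were all smaller than 0.4.

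Levels between genes were compared per length, as RPKM (reads scaled to exon length and to the total of mapped reads). Summed over the 9 genes, RPKM was 92.4 ± 6.06 in MPP, 156 in BFU-E and 225 in CFU-E as means of 3 libraries. In MPP the order of the means was Slc14a1, Cd44, Gypc, Aqp1, Icam4 and then the rest, all at or below 0.672 RPKM. The ranges of Slc14a1, Cd44 and Gypc overlapped from neighbour to neighbour. In BFU-E, Slc14a1 stood clear of the others with 70.2 ± 7.16 RPKM, 45.1% of the sum, and Aqp1, Gypc and Cd44 followed at 25.5 ± 2.72, 25.1 ± 2.51 and 23.8 ± 1.41 RPKM with overlapping ranges. In CFU-E the order was led by Aqp1 with 72.9 ± 3.96 RPKM, 32.5% of the sum, and Ermap with 46.8 ± 4.75 RPKM, 20.8% of the sum, and neither overlapped its neighbour. Slc14a1 stood below Cd44 and Gypc there, with 8.45% of the sum. Ermap took 0.148% of the sum in MPP and 0.309% in BFU-E. Kel, Rhag and Rhd had the lowest means in CFU-E, with the ranges of Kel and Icam4 overlapping, at 10.4 ± 2.10, 4.58 ± 0.165 and 2.67 ± 0.863 RPKM.

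**Figure D3:**
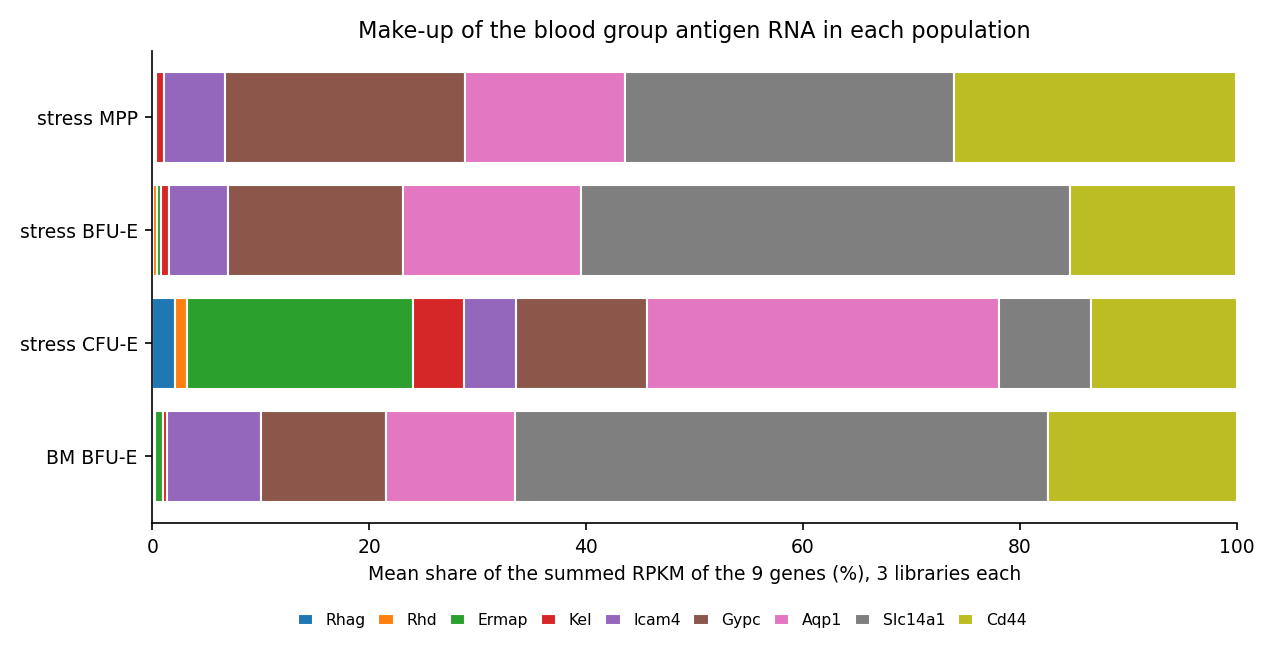
Share of each gene in the summed RPKM of the 9 genes, as the mean of 3 libraries, in stress MPP, stress BFU-E, stress CFU-E and BM BFU-E. Slc14a1 takes 45.1% in stress BFU-E and 49.1% in BM BFU-E, and in CFU-E Aqp1 and Ermap take 32.5% and 20.8%.

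For each tested gene, the most alike genes were those with the smallest root mean square difference of centred log2(CPM + 1) over the 9 spleen libraries, among 10165 others. Nearest to Ermap were Pklr, the red cell pyruvate kinase (0.631), Car1, a carbonic anhydrase (0.904), and Atp1b2 (0.998). Nearest to Slc14a1 were Mvb12b (0.247), Ehd3 (0.259) and Rhob (0.297), each with its highest mean in BFU-E. Nearest to Aqp1 were Ugcg, which makes glucosylceramide (0.125), Atp13a3 (0.168) and Steap3, an iron reductase of erythroid endosomes (0.176). Rhag had Sfrp4 (0.498), the iron exporter Slc40a1 (0.503) and Nkx1-2 (0.546), and Kel had Reps2 (0.473), Dapk2 (0.580) and Garem (0.587). Gypc was nearest to the translation genes Eef2 and Rplp0 (0.0656 each) and to Nfkb1 (0.0699), Cd44 to Skiv2l2 (0.0626), Pmpca (0.0697) and Mrps9 (0.0727), and Icam4 to Bcas3 (0.242), Ahcy (0.270) and Arsa (0.270). No blood group antigen gene described here was among the 3 nearest of another. Rhag and Kel were each among the 32 nearest of the other, at a difference of 0.892. From Ermap, Rhag ranked 20 and Kel 29, at larger differences of 1.80 and 1.99, while Ermap ranked 3274 from Rhag and 7940 from Kel.

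Among 32 other blood group genes, chosen by their human blood group systems, 20 had enough counts to be tested. Between CFU-E and BFU-E, 3 rose and 6 fell, where 9.17% of all tested genes rose and 11.9% fell, and the median log2 fold change was 0.03. Those that rose were Slc29a1, the nucleoside transporter of the Augustine system (69.2 ± 11.8 CPM in CFU-E and 18.3 ± 1.60 CPM in BFU-E, edgeR adjusted p = 2.3e-06), Piezo1, the stretch-activated channel of the Er system (296 ± 16.6 CPM and 156 ± 6.86 CPM, edgeR adjusted p = 1.7e-06), and Bsg, the basigin of the Ok system (296 ± 7.48 CPM and 218 ± 17.7 CPM, edgeR adjusted p = 0.019). Sema7a, the semaphorin of the John Milton Hagen system, had no count in CFU-E, against 4.71 to 7.78 CPM in BFU-E. Taking a floor of 3 counts over the CFU-E libraries, it was at least 70.2-fold lower in CFU-E. Ache, the acetylcholinesterase of the Yt system, fell to 4.06 ± 2.28 CPM in CFU-E, against 59.1 ± 10.8 CPM in BFU-E (edgeR adjusted p = 2.3e-08). Gcnt2, the branching enzyme that makes the I antigen, fell to 28.5 ± 2.06 CPM in CFU-E, against 75.0 ± 14.8 CPM in BFU-E (edgeR adjusted p = 3.2e-06). The transporter genes Slc44a2, Abcg2 and Abcc1 fell by 1.06, 0.70 and 0.60 on the log2 scale.

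Between BFU-E and MPP, Gcnt2 alone of these 20 was called, at 75.0 ± 14.8 CPM in BFU-E and 129 ± 8.76 CPM in MPP (edgeR adjusted p = 0.0077), and the median was −0.06. Of all tested genes, 4.13% were called there. Between CFU-E and MPP, 3 rose and 9 fell, where 12.7% of all tested genes rose and 16% fell, and the median was 0.18. Slc29a1, Pigg and Piezo1 rose by 1.24, 0.97 and 0.85 on the log2 scale. The falls included Ache by 2.81, Gcnt2 by 2.17 and Slc44a2 by 1.13, and Sema7a was at least 134-fold lower in CFU-E by the same floor. Slc4a1, the gene of the band 3 anion exchanger of the mature red cell, was too low to test, with 0 to 2.14 CPM in CFU-E and 0 to 2.77 CPM in BFU-E.

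Of 10 genes listed as membrane partners of the Rh, band 3 and glycophorin C complexes, 8 were tested. Between BFU-E and MPP 4 rose and none fell, where 2.03% of all tested genes rose and 2.11% fell, and the median was 0.48. Add2, the beta adducin, had 5.16, 6.46 and 10.2 CPM in BFU-E and a single count over all MPP libraries. Sptb, the beta spectrin, averaged 80.0 ± 10.7 CPM in BFU-E and 21.7 ± 11.9 CPM in MPP (a log2 difference of 1.86, edgeR adjusted p = 0.00035). Ank1, the erythroid ankyrin, rose by 1.59. Between CFU-E and BFU-E 3 rose and 3 fell, where 9.17% of all tested genes rose and 11.9% fell, and the median was −0.05. Ank1 averaged 242 ± 28.9 CPM in CFU-E and 10.3 ± 0.897 CPM in BFU-E (a log2 difference of 4.55, edgeR adjusted p = 9.1e-11), and Add2 rose by 3.56. Like Rhag, Kel and Ermap, Add2 reached the mean of 50 counts only through its level in CFU-E, so its rise there was built into its entry. Sptb fell by 1.89, Tmod1, which caps actin filaments, by 1.10, and Epb41, the protein 4.1 that holds glycophorin C, by 0.53. Between CFU-E and MPP 3 rose and 2 fell, where 12.7% of all tested genes rose and 16% fell. Ank1 rose by 6.15, and Tmod1 and Epb41 fell by 1.77 and 0.54. Between stress BFU-E and BM BFU-E, 0 of the 20 other blood group genes and 0 of these 8 were called in edgeR, where 0.112% of all genes were. At an unadjusted p under 0.05 there were 0 of the 20 and 3 of the 8, which were Mpp1, Ank1 and Add2, where 1053 of all 10702 genes of that table lay under it. The lists were not tested as sets.

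The second question is how stress BFU-E differ from steady-state BFU-E. None of the 7 genes in the BFU-E table was called, where 0.112% of all 10702 genes were called, 0.00934% higher and 0.103% lower. None had an unadjusted p under 0.05 in edgeR either, where 1053 of all 10702 genes did, and DESeq2 called none. The median log2 fold change of the 7 genes was −0.18, beside 0.01 over all genes.

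**Figure D4:**
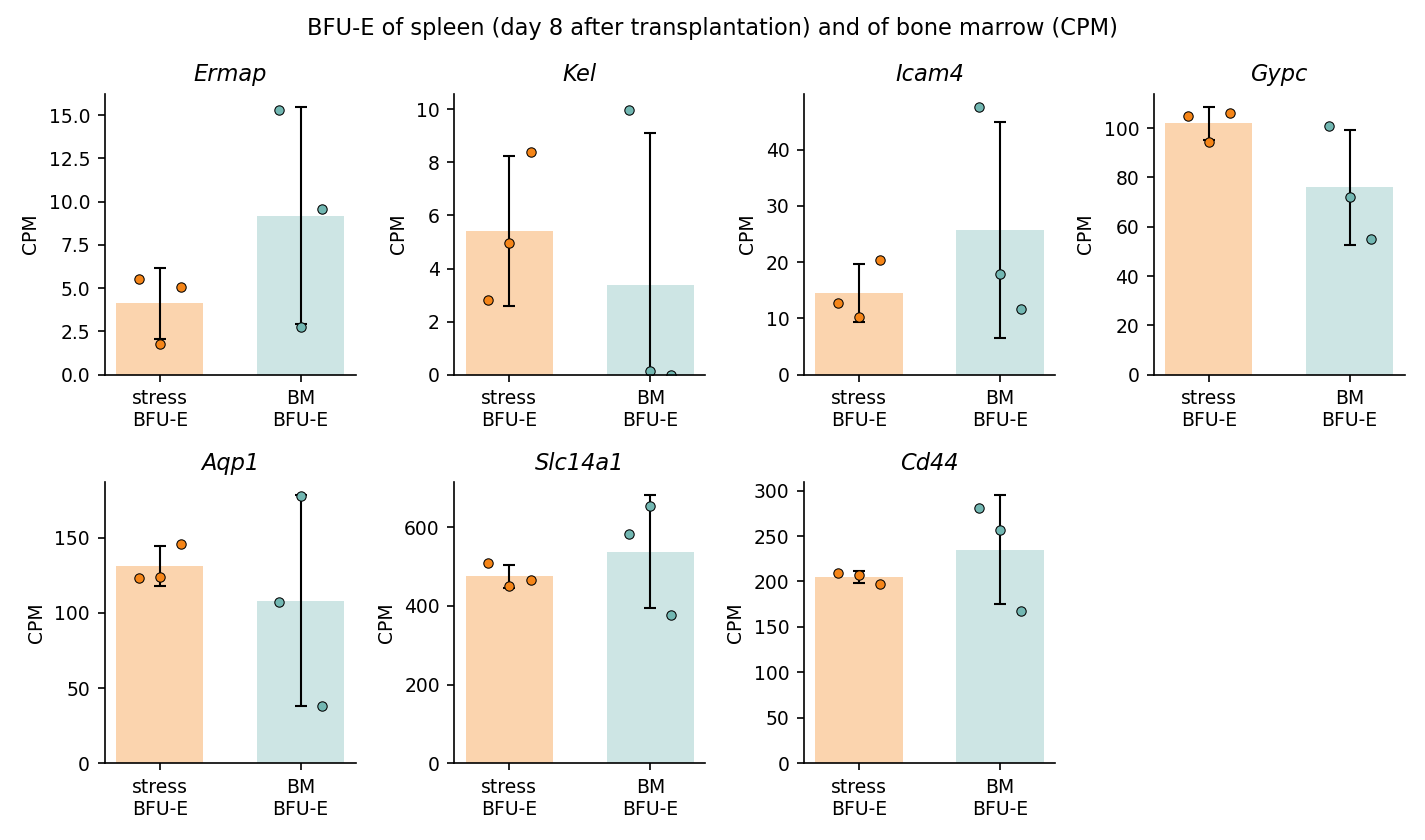
Level in CPM of the 7 genes of the BFU-E table in 3 stress spleen BFU-E libraries and 3 BM BFU-E libraries: points are libraries, bars are means and error bars are SD, and each panel has its own linear axis from 0. The BM libraries spread more widely than the stress libraries in every panel.

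Slc14a1 was the highest of the genes in both populations. It had 508, 450 and 466 CPM in stress BFU-E, against 584, 653 and 377 CPM in BM BFU-E. The stress libraries lay within the BM range, and the difference of −0.18 on the log2 scale had an approximate 95% interval of −0.59 to 0.23 (edgeR adjusted p = 0.85). Such intervals rest on a normal approximation and are narrower than the edgeR test implies, so their ends are not firm limits. Cd44 behaved alike, with 209, 207 and 197 CPM in stress BFU-E, against 281, 257 and 168 CPM in BM BFU-E (log2 fold change −0.20, interval −0.62 to 0.22).

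For the others the interval was wider. Gypc had 105, 94.2 and 106 CPM in stress BFU-E, against 101, 72.2 and 54.9 CPM in BM BFU-E (0.42, interval −0.13 to 0.97). Aqp1 had 123, 124 and 146 CPM in stress BFU-E, against 107, 178 and 38.1 CPM in BM BFU-E (0.28, interval −0.65 to 1.21), and without BM library 3 its sign turned, to −0.12. Icam4 had 12.8, 10.3 and 20.3 CPM in stress BFU-E, against 47.6, 17.9 and 11.6 CPM in BM BFU-E (−0.83, interval −2.26 to 0.61). In all 3 genes the populations overlapped, and BM library 3 was the lowest of the BM libraries. Myeloid markers also varied among them, with 10 genes summing to 685 to 832 CPM in stress BFU-E and 802 to 1990 CPM in BM BFU-E, and their part was not tested.

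Ermap and Kel were low in both. Ermap had 5.53, 1.78 and 5.05 CPM in stress BFU-E, against 15.3, 2.75 and 9.56 CPM in BM BFU-E (log2 fold change −1.16, interval −3.53 to 1.21). Kel had 2.80, 4.98 and 8.41 CPM in stress BFU-E, against 9.98, 0.125 and 0.00 CPM in BM BFU-E (0.67, interval −3.26 to 4.61). Of the BM counts of Kel, 92 were in library 1, 1 in library 2 and 0 in library 3. The authors' filter on mean counts left Rhag and Rhd out of this table. In the deposited RPKM table of the BFU-E libraries, Rhag was listed at 0.074, 0.021 and 0.317 RPKM in stress BFU-E, against 0, 0 and 0.404 RPKM in BM BFU-E, and Rhd at 0, 1.22 and 0.429 RPKM, against 0, 0 and 0.65 RPKM as the ordered BM values.

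By RPKM in that table, the order in BM BFU-E was Slc14a1 with 79.2 ± 20.1 RPKM, clear of the others, then Cd44, Aqp1, Gypc and Icam4 with overlapping neighbours. Slc14a1 made up 45.1 ± 2.41% of the 9-gene sum in stress BFU-E and 49.1 ± 4.58% in BM BFU-E. The sums were 156 and 164 RPKM.

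The third question is which DNA around these genes was open in BFU-E. The authors deposited 1 merged peak list for each population, so peaks have no replicates and no test was made between the populations. Of the 44 peaks assigned to the genes in stress BFU-E, 29 overlapped a peak of the BM list by at least 1 bp and 15 did not, which is 34.1%, where 45% of all stress peaks had no overlap in the BM list. Where both peaks of a pair had to reach the median score of their list, 13 of 31 overlapped. The share over all peaks under that stricter rule was not computed, so this count has no background. All 29 peaks of the BM list overlapped a stress peak, where 4.52% of all BM peaks did not. The depth of the ATAC libraries is unknown, and its part in the shorter BM list was not tested.

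**Figure D5:**
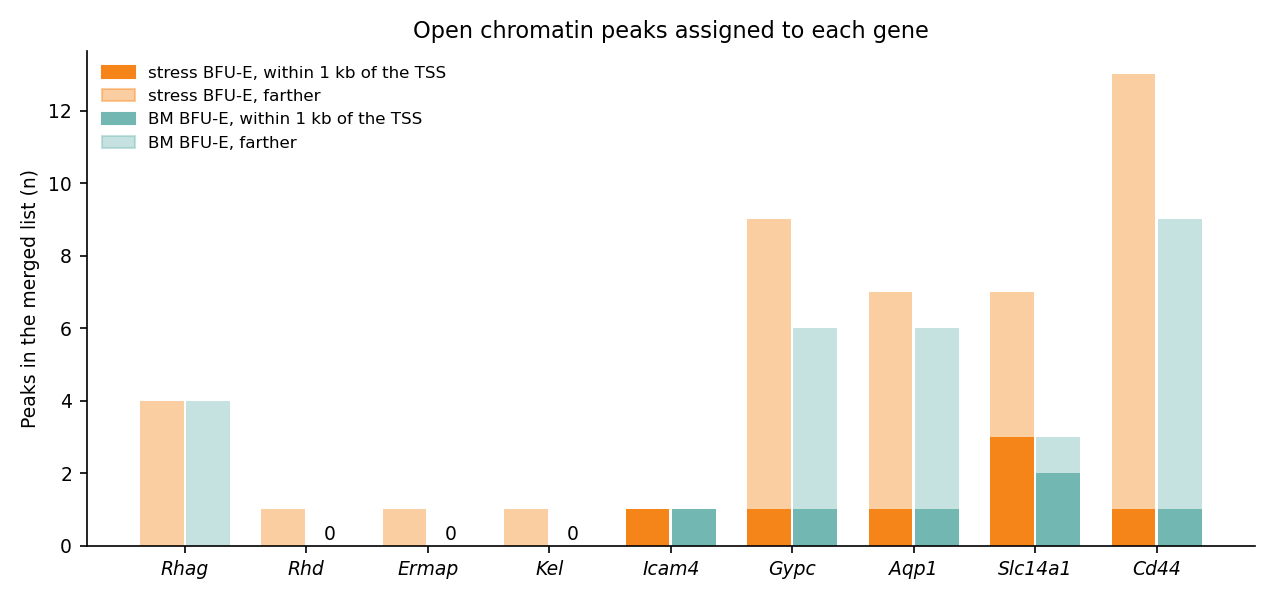
Number of peaks assigned to each gene in the merged lists of stress BFU-E and BM BFU-E, with peaks within 1 kb of the transcription start (TSS) in full colour and farther peaks in pale colour. Rhd, Ermap and Kel have 1 distal peak each in stress BFU-E and 0 in BM BFU-E, and Rhag has 4 distal peaks in both.

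The genes fell into 2 kinds by their start sites. Gypc, Aqp1, Slc14a1, Icam4 and Cd44 had a peak within 1 kb of the TSS in both lists, and Rhag, Rhd, Ermap and Kel had none in either. That is 5 of 9 genes, where 84.6% of all genes tested in the spleen series had such a peak in stress BFU-E and 80.7% in BM BFU-E. The 4 genes without one were the lowest in stress BFU-E, with means of 0.137 to 1.16 RPKM. Of the 1283 tested genes with a mean under 2 RPKM there, 78.3% had a peak within 1 kb in stress BFU-E.

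Slc14a1 had 7 stress peaks and 3 BM peaks. Peaks lay at both of its annotated starts in both lists, 67 bases downstream of one and 3 bases upstream of the other in stress BFU-E, with scores of 1000 and 992 against 1000 and 759 in BM BFU-E. The stress peaks 3770 and 4909 bases upstream of a Slc14a1 start are labelled as the end and the last exon of another transcript. Neither overlaps a BM peak. The score is the authors' own and ends at 1000, and it ranks peaks within a list only. Cd44 had 13 stress peaks and 9 BM peaks, reaching 85484 bases upstream of its start. The Cd44 peak in an intron 72252 bases downstream has 225 bases, scores 1000 in both lists and lies on a ribosomal RNA repeat. Gypc had 9 and 6 peaks and Aqp1 had 7 and 6, and Icam4 had 1 in each, at its start. The Aqp1 stress peak 59384 bases upstream lies in an intron of another transcript, and the Icam4 stress peak is labelled as the end of another transcript. Both overlap a BM peak. Rhag had 4 in each: 1 lay 4262 bases upstream of the start, and the others lay in introns 1, 5 and 9, with scores of 938 to 1000 in stress BFU-E and 474 to 981 in BM BFU-E. The Rhag peaks in introns 1 and 5 are labelled as LINE repeats in both lists, and the BM peak in intron 9 as a SINE repeat. Rhag thus had peaks in BFU-E of both sources, beside an RNA level of at most 1.34 CPM in stress BFU-E.

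Ermap, Kel and Rhd had 1 peak each in stress BFU-E and 0 in BM BFU-E. The Ermap peak lies in intron 2, 1502 bases downstream of the start, with a score of 527. The Kel peak lies between genes in the authors' annotation, 2036 bases upstream of the start, with a score of 693, and in RefSeq it overlaps an exon of the predicted non-coding gene Gm38796. The Rhd peak lies in intron 2, 15093 bases downstream, with a score of 752. The median score of the stress list is 992, so all 3 rank in its lower part. The central 300 bases of these peaks are shown on the plus strand of mm10 (GRCm38), with matches to AGATAA or TGATAA on either strand in capitals. These are forms of the site bound by GATA factors, which drive erythroid genes.
Ermap peak, chr4:119188360-119188659: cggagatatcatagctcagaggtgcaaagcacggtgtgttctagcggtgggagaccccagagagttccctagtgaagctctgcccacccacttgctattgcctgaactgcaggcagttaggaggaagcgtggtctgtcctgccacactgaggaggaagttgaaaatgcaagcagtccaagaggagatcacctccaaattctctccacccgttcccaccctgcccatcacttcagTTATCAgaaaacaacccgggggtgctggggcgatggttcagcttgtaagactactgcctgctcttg
Kel peak, chr6:41706212-41706511: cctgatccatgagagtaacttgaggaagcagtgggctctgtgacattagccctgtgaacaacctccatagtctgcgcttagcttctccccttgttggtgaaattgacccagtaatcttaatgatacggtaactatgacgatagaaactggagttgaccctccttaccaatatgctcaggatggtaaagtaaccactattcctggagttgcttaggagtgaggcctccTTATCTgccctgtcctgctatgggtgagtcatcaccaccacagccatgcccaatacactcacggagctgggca
Rhd peak, chr4:134879480-134879779: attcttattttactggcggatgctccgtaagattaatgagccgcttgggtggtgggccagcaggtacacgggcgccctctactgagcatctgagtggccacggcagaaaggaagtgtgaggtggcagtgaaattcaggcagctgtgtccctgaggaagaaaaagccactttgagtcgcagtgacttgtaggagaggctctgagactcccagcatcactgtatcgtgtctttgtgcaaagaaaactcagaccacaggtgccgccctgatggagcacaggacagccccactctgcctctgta
The Ermap and Kel windows hold 1 match each and the Rhd window holds none. Among all distal stress peaks, 30.7% of the central 300-base windows hold a match, and among the 37 distal peaks of the blood group antigen genes 12 do. For CCNCNCCC, a form of the CACCC site bound by Kruppel-like factors such as Klf1, 9 of the 37 hold a match on either strand, where 32.5% of all distal peaks do.

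The starts of the 4 genes without a peak are shown next, since each of them holds AGATAA or TGATAA close by. These are the last 120 bases before the RefSeq start (GRCm38.p6), read in the direction of the gene, with these matches, on either strand, in capitals.
Rhag promoter, plus strand, chr17:40811029-40811148: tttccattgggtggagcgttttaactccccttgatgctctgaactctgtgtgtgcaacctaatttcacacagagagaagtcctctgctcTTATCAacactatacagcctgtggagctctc
Rhd promoter, plus strand, chr4:134864416-134864535: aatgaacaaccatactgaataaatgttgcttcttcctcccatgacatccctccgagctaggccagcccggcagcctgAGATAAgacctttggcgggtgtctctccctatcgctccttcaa
Ermap promoter, minus strand, chr4:119189996-119190115: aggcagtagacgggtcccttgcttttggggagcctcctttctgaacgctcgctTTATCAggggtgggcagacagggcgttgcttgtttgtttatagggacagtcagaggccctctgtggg
Kel promoter, minus strand, chr6:41704326-41704445: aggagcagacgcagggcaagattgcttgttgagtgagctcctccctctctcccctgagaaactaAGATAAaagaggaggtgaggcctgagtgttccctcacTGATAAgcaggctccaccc
The match begins 31 bases before the start in Rhag, 43 in Rhd and 67 in Ermap, and Kel has matches at 56 and 19. In the authors' annotation Ermap starts within the printed stretch, at base 119190011 of the chromosome. Over 250 bases before the start, 6 of the 7 genes with an entry in the promoter table hold AGATAA or TGATAA: these 4, Icam4 and Cd44. In the authors' annotation Icam4 starts inside its window, at base 21029373, and its match lies downstream of that start. Aqp1 holds none. Of the 27025 genes of that table, 17.0% hold one. CCNCNCCC occurs in the promoters of Aqp1, Icam4 and Cd44 and in none of the 4 genes without a peak, and 45.6% of all promoters hold it. No match of one motif shares bases with a match of the other in these 7 windows. A match to so short a sequence is a description of the DNA and shows no binding. Promoters of Gypc and Slc14a1 are not shown.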

How the data were processed

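The RNA kit was strand-specific and took total RNA, per the labels' protocols; STAR 2.6.0b-1, HOMER 4.8, Bowtie2 2.3.4.2 and DESeq2 are named, without their roles, in the submitters' processing notes, with mm10 (GRCm38). The authors deposited raw exon counts per gene and RPKM values from HOMER, per the file headers; the count table of both BFU-E populations holds genes the authors filtered on a mean of 50 counts. The deposited peak lists give a peak score of at most 1000 and a distance to the nearest TSS, 1 merged list per population; the peak caller is not given in the sources used here. Raw counts were fitted with edgeR 4.0.16 (TMM, quasi-likelihood test, Benjamini-Hochberg adjustment, threshold 0.05), without replicate blocks: once over the 9 spleen libraries, for 10166 genes with a mean of at least 50 counts, and once over the 6 BFU-E libraries, for 10702 genes. Biological coefficients of variation were 0.25 and 0.704. The code was tested on simulated data. Overlaps used bedtools 2.31.1 with at least 1 bp, and sequences came from RefSeq GRCm38.p6. Intervals on fold changes are at 95% by a normal approximation and are narrower than the quasi-likelihood test implies. For Slc14a1 and Cd44 the count and RPKM tables list different transcripts, so their RPKM and CPM levels are not interchangeable. Counting floors cover counting error only. The libraries of a group may be technical repeats, so p-values measure the spread between these libraries. Alternatives were DESeq2 1.42.0, limma 3.58.1 on log2(RPKM + 1) and log2(RPKM + 0.1), other filters and size factors, a replicate block and leaving out each library. The genes named are the 9 antigen genes, genes of 2 further lists that passed, sort antigens and the 3 nearest in pattern. Some genes of these lists are counted but not reported by name here. Genes and lists were chosen with earlier results of these data known.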

Additional observations from a re-analysis of the deposited data

How the results depend on the processing

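Over 39 pairs of a gene and a comparison, 640 alternative values were computed: 590 kept their direction and their side of the threshold, 24 lost and 12 gained a call, and 14 turned sign. All 14 belonged to differences that had not passed the test. For stress BFU-E against BM BFU-E, the alternative without a filter was the main fit itself, so its values could not change. The libraries left out included those of spleen populations outside a comparison. For Rhag in BFU-E against MPP the value was 0.24 and 0.00 with limma (pseudocounts 0.1 and 1) and ran between −1.68 and 5.66 when 1 library was left out (0.11 without BFU-E library 1, 0.26 without BFU-E library 2, 5.66 without MPP library 1). For Cd44 in the same comparison it was −0.02 and −0.01 with limma, −0.01 without BFU-E library 1 or MPP library 1, and −0.07 without MPP library 3. With 1 library left out, Icam4 in CFU-E against BFU-E ran between −0.05 (without CFU-E library 2) and 0.69, and its difference between steps between −0.79 and 0.26 (without BFU-E library 3). The Rhag difference between steps ran between −0.62 (without MPP library 1) and 8.20, and Aqp1 in stress BFU-E against BM BFU-E between −0.12 (without BM library 3) and 0.86. The causes were not tested.

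Leaving out 1 library gave 2 to 3 genes called for BFU-E against MPP, 5 to 6 for CFU-E against BFU-E, 5 to 8 for CFU-E against MPP, 2 to 3 for the difference between steps and 0 each time for stress BFU-E against BM BFU-E. With all libraries, 4.13%, 21.1%, 28.8%, 7.77% and 0.112% of all genes were called in these comparisons, in that order. The shares over all genes in the alternatives are not given here. Without a filter on low counts the difference between steps had 4 genes called, Kel and Rhag being added. Slc14a1 and Aqp1 at both steps, and Ermap, Kel and Rhag at the second, were called in all 17 alternatives. For Ermap, Kel and Rhag, which entered only through CFU-E, a rise was built into the alternatives that kept the same filter, which were most of them. Peaks within 10 kb of a TSS numbered 21 in the stress list and 13 in the BM list, with 12 stress peaks shared. At a score of at least the list's median, the stress list had 31 and the BM list 12, and 13 stress peaks were shared. The shares over all peaks were not computed under these rules. In stress BFU-E against BM BFU-E, the median over all genes shifted by 0.21 and 0.137 (log2) with limma and by 0.18 with the replicate block.

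For each library, the deviation of each gene's log CPM from the mean of its population was taken. Across genes, these deviations correlated at 0.015 to 0.134 between spleen libraries of the same number, with 2 of the 9 pairs over 0.1. Between same-numbered libraries of the BFU-E populations they correlated at −0.034 to −0.022. Between spleen libraries of different numbers the deviations correlated at −0.093 to 0.03, so the ranges overlapped. Whether spleen libraries of one number share more than the number cannot be told from these values. With the replicate block 3, 6, 7, 2 and 0 genes were called in the 5 comparisons in the order above. At the second step the blocked fit gave 6.62 for Ermap, 3.27 for Kel, 5.29 for Rhag, 1.53 for Aqp1 and −1.85 for Slc14a1. The block changed no call of the 39.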

Other observations

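A further deposited RPKM table covers all 12 libraries, and its BM columns differ from those of the 6-library table used above. There Slc14a1 was listed at 383 to 547 RPKM in BM BFU-E, against 56.2 to 93.4 RPKM in the 6-library table. Icam4 was listed at 47.9 to 133 RPKM, against 6.88 to 28.3 RPKM, and Rhag at 2.77 to 6.34 RPKM, against 0 to 0.404 RPKM. The stress BFU-E values of all 9 genes were identical in both tables. The summed RPKM of a BM column was 393500 to 438900 in the 12-library table and 200800 to 237800 in the 6-library table, against 189900 to 202100 in the stress BFU-E columns of both. Beside the 79.2 RPKM of Slc14a1 in BM BFU-E and 70.2 RPKM in stress BFU-E of the 6-library table, the deposited counts gave 538 and 475 CPM, so the 6-library values are the ones that go with the counts.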
